A study of Homo sapiens with 15 samples.

Results

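A set of 10 genes of fatty acid activation and glycerolipid acylation were followed in Caco-2, a line of human colon carcinoma cells that grows as a monolayer with features of enterocytes. The 10 genes were the long-chain acyl-CoA synthetases ACSL1, ACSL3, ACSL4 and ACSL5, the glycerol phosphate acyltransferases GPAM and GPAT3, the lysophosphatidate acyltransferases AGPAT2 and AGPAT3, and the lipins LPIN1 and LPIN2. They were chosen by their roles and found by gene symbol among 69215 listed genes, and all 10 were among the 12769 genes with enough counts to be tested. RNA sequencing covered 5 libraries of cells with no treatment (control), 5 of cells given polysorbate 20 (PS20) and 5 of cells given polysorbate 80 (PS80), each emulsifier at 0.05% for 24 h. PS20 and PS80 are nonionic food surfactants built on polyoxyethylene sorbitan, with laurate as the ester of PS20 and oleate as that of PS80. All 15 libraries came from the same cell line, and the labels did not say whether replicates were separate cultures. The p-values therefore measure the spread between these libraries, which may be technical.

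A long-chain fatty acid enters metabolism only after an acyl-CoA synthetase has joined it to coenzyme A. Glycerol phosphate acyltransferases place an activated fatty acid on glycerol 3-phosphate, lysophosphatidate acyltransferases add another and give phosphatidate, and lipins remove the phosphate to give diacylglycerol. Diacylglycerol is the precursor of triacylglycerol and of the main membrane phospholipids, and in the enterocyte this route and the monoacylglycerol route supply the lipid of chylomicrons and of lipid droplets.

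The total count of a library lay between 4183096 and 13616301 in control, between 6749086 and 17251564 with PS20 and between 6769409 and 42271053 with PS80. The share of mitochondrially encoded RNA lay between 1.497% and 1.914% in control, between 2.03% and 2.58% with PS20 and between 1.45% and 2.97% with PS80, and PS80 replicate 2 had both the highest depth and the highest share. Replicates 1 and 2 stood apart from replicates 3 to 5 in several genes described here. PS80 replicates 1, 3, 4 and 5 were counted with another software version than the other 11 libraries, so in those 4 libraries the version and the emulsifier cannot be told apart. The labelled cell line was checked against 12 epithelial and enterocyte markers, of which 11 were tested and KRT20 was at 0 in all libraries. Their summed level was 11979 to 13434 CPM (counts scaled to library size) in control, 10015 to 10752 CPM with PS20 and 11980 to 12755 CPM with PS80. Blood cell markers summed to at most 19.9 CPM in any library, with HBB at 0. Adipocyte markers, which would bring glycerolipid genes with them, summed to at most 28.1 CPM, and 4 of these 5 were under 1 CPM in all libraries.

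Promoter sequence is shown for ACSL4, GPAT3 and AGPAT2, which were higher with each emulsifier than in control. It is also shown for GPAM, chosen after its values were seen, which was higher with PS20 and lower with PS80. The sequences are from RefSeq (GRCh38.p14) and lie within the 250 bases before a listed transcript start. They hold no base that the deposited gene models count as exon of the same gene, and exons of other genes were not checked. Capitals mark matches to the GC box GGGCGG on either strand, and neighbouring matches may overlap.
ACSL4, minus strand, chrX:109733404-109733507: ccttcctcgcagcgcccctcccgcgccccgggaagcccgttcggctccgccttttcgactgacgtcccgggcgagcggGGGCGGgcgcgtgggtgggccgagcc
GPAT3, plus strand, chr4:83535857-83535913: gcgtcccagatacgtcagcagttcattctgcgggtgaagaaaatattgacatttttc
AGPAT2, minus strand, chr9:136687458-136687707: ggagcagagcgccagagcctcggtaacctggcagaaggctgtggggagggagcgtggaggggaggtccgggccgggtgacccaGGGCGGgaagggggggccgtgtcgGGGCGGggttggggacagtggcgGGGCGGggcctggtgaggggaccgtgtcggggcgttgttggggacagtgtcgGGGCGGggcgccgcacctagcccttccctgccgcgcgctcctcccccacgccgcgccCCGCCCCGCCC
GPAM, minus strand, chr10:112183766-112184015: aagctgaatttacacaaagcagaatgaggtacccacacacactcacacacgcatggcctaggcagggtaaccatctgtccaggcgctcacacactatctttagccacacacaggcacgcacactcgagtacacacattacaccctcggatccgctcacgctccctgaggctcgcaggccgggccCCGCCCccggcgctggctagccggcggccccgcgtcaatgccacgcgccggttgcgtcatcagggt
The AGPAT2 stretch held 6 GC boxes at 77.6% G and C, ACSL4 held 1 at 78.8%, GPAM held 1 at 62.0%, and the shorter GPAT3 stretch held 0 at 43.9%. Over the full 250-base windows, of which the ACSL4 and GPAT3 stretches are a part, the content was 77.2% with 3 GC boxes for ACSL4 and 62.4% with 1 for GPAT3. The median content of all windows was 58.0%. The GPAM stretch lies inside its deposited gene model, before an internal transcript start. Gene-level counts do not show which start is in use.

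A set of 6 motifs, chosen with results of these data known, were searched on both strands of the 250-base windows. All 10 genes had a window, 20 windows in total. The GC box was in 11 of these 20 windows and in 42.6% of all 35116 windows. The 2 windows of GPAT3 start 1 base apart and hold the same GC box, which is counted in both. The sterol regulatory element core TCACNCCAC was in 1 of 20, a window of ACSL1, and in 0.883% of all windows. The E-box CACGTG was in 1 of 20, a window of LPIN2, and in 6.34% of all. The antioxidant response element core TGACNNNGC was in 3 of 20 and in 10.9% of all. The C/EBP-ATF element TGATGNAAN and the peroxisome proliferator response element, a direct repeat with a spacer of 1 base, were in 0 of 20, and in 3.13% and 0.0171% of all windows. A match is a description of letters, not a binding site.

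Levels of different genes were compared per length, as RPKM (counts scaled to library size and exonic length, mean ± SD, n = 5). The exonic length is that of all exons listed for a gene, from 1832 bases for AGPAT2 to 14436 for ACSL3. The order of genes depends on it, and the length of the transcripts in use was not measured. In CPM, not scaled to length, control cells had 396 ± 15.8 for ACSL3 and 82.3 ± 4.73 for AGPAT2. Per length, AGPAT2 had the highest level of the 10 in control cells, 44.9 ± 2.58 RPKM. ACSL3 followed at 27.4 ± 1.10 RPKM and ACSL5 at 24.5 ± 4.15 RPKM, with ranges that overlapped. AGPAT3 (13.7 ± 0.601 RPKM), ACSL1 (12.9 ± 1.62 RPKM) and GPAM (12.9 ± 0.803 RPKM) also overlapped each with the next. LPIN2 (10.4 ± 0.723 RPKM) and ACSL4 (7.58 ± 1.04 RPKM) stood apart from their neighbours in this order. GPAT3 (2.89 ± 0.716 RPKM) and LPIN1 (2.54 ± 0.361 RPKM) were the lowest and overlapped. With PS20, ACSL4 overlapped both GPAM (15.5 RPKM) and AGPAT3 (13.4 RPKM), while GPAT3 (6.07 RPKM) no longer overlapped LPIN1 (3.39 RPKM). With PS80 the order again began with AGPAT2 (58.5 RPKM) and ended with GPAT3 (4.34 RPKM) and LPIN1 (1.87 RPKM). In raw counts, the lowest library of each gene ranged from 40 for GPAT3 to 1610 for ACSL3, so GPAT3 carried the largest counting error.

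**Figure D1:**
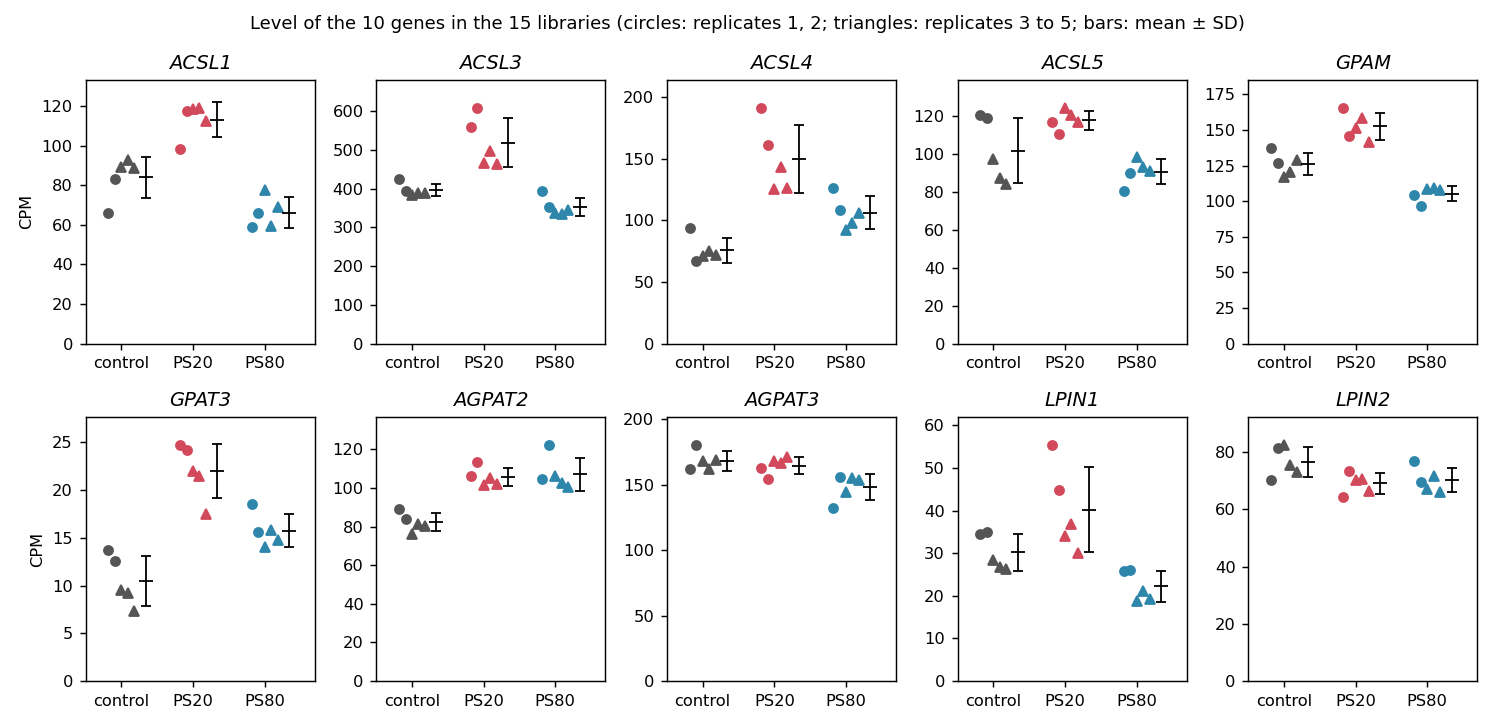
Level of each of the 10 genes in CPM (vertical axis, starting at 0) in every library of control, PS20 and PS80; circles are replicates 1 and 2, triangles replicates 3 to 5, and the bars beside them give the mean ± SD of the 5 libraries. ACSL4 and GPAT3 are higher with PS20 than in any control library, ACSL1, GPAM and LPIN1 are lower with PS80 than with PS20 in every library, and LPIN2 overlaps in all 3 groups.

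PS20 was compared with control to ask how it changed the mRNA of fatty acid activation and glycerolipid assembly. Of the 10 genes, 8 rose with PS20, 0 fell and 2 did not pass the test, against a background of 48.3% of all tested genes that passed, 24.4% higher. GPAT3 rose 2.12-fold and ACSL4 rose 1.98-fold, and the other 6 rose between 1.16-fold and 1.34-fold. All 4 synthetases and both glycerol phosphate acyltransferases were among those that rose. LPIN2 was the only gene on the lower side at an unadjusted p under 0.05 by edgeR, and the count of genes lower was 1 with DESeq2 and 0 with limma voom. The median log2 fold change was 0.37 over the 10 genes and 0.01 over all tested genes.

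ACSL1, an acyl-CoA synthetase of the endoplasmic reticulum and the mitochondrial outer membrane, had 66.2, 83.3, 89.3, 92.9 and 88.7 CPM in control replicates 1 to 5. With PS20 it had 98.6, 117, 119, 119 and 112 CPM. Every PS20 library lay above every control library, and replicate 1 was the lowest in both groups. The log2 fold change was 0.43 ± 0.086 (SE, as for every log2 fold change below), with an adjusted p of 0.000323. Every adjusted p that names no other tool is from the quasi-likelihood test of edgeR, adjusted by Benjamini-Hochberg over all tested genes. In the genome build GRCh38, ACSL1 (ENSG00000151726.16) spans chromosome 4 from 184755595 to 184826818 on the minus strand, and 4.5% of its exonic bases also lie in exons of other genes.

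ACSL3, the synthetase found on the endoplasmic reticulum and on growing lipid droplets, had 424, 395, 384, 389 and 389.7 CPM in control replicates 1 to 5. In the PS20 libraries it had 559.6, 608, 465, 496 and 464 CPM. The groups did not overlap, and the PS20 values of replicates 1 and 2 were above those of replicates 3 to 5. Its log2 fold change was 0.39 ± 0.067 (adjusted p = 6.73e-05). ACSL3 (ENSG00000123983.15) lies on chromosome 2 from 222860942 to 222944639, plus strand, and shares 2.79% of its exonic bases with its antisense gene ACSL3-AS1.

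ACSL4, the synthetase that prefers arachidonate and other polyunsaturated fatty acids, had 93.5, 67.0, 70.9, 74.9 and 71.6 CPM in control replicates 1 to 5. Its PS20 values were 191, 161, 126, 144 and 126 CPM. The lowest PS20 library lay above the highest control library. This gave a log2 fold change of 0.99 ± 0.11, with a 95% interval from 0.76 to 1.22 (adjusted p = 3.09e-07). ACSL4 (ENSG00000068366.21) lies on chromosome X from 109624244 to 109733403, minus strand, and shares 0.782% of its exonic bases with KCNE5.

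ACSL5, a synthetase abundant in the intestinal mucosa, had 120.3, 119, 97.4, 87.2 and 84.0 CPM in control replicates 1 to 5. With PS20 it had 117, 110.4, 124, 120.4 and 117 CPM. The groups overlapped, because control replicates 1 and 2 were as high as the PS20 libraries while control replicates 3 to 5 were lower than all of them. By edgeR its log2 fold change was 0.22 ± 0.086 (adjusted p = 0.0400). Within replicates 1 and 2 alone the log2 fold change was -0.08 (adjusted p = 0.645), and within replicates 3 to 5 alone it was 0.45 (adjusted p = 3.41e-07). The call was also lost with DESeq2 (adjusted p = 0.0550), without control replicate 3 (0.0865), 4 (0.142) or 5 (0.137), without PS20 replicate 1 (0.0552), 3 (0.0917), 4 (0.0726) or 5 (0.0590), and without PS80 replicate 5 (0.0521). ACSL5 (ENSG00000197142.11) lies on chromosome 10 from 112374116 to 112428379, plus strand, and shares 8.85% of its exonic bases with ZDHHC6 and an antisense transcript.

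GPAM encodes the mitochondrial glycerol phosphate acyltransferase, which prefers saturated fatty acids. It had 137, 127, 117, 121 and 129 CPM in control replicates 1 to 5, and 165, 146, 151, 159 and 142 CPM with PS20. The groups did not overlap, with a gap between control replicate 1 and PS20 replicate 5. On the log2 scale the change was 0.27 ± 0.057 (adjusted p = 0.000490), and 0.23 in replicates 1 and 2 alone (adjusted p = 0.138). GPAM (ENSG00000119927.14) lies on chromosome 10 from 112149865 to 112215377, minus strand, with no exonic base shared with another gene.

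GPAT3, a glycerol phosphate acyltransferase of the endoplasmic reticulum, had 13.7, 12.53, 9.55, 9.17 and 7.38 CPM in control replicates 1 to 5. In the PS20 group it had 24.7, 24.2, 22.1, 21.5 and 17.5 CPM. No library of PS20 fell within the control range, and in both groups replicates 1 and 2 were the highest. The fitted log2 fold change was 1.08 ± 0.14, with a 95% interval from 0.80 to 1.37 (adjusted p = 1.43e-06). GPAT3 (ENSG00000138678.11) lies on chromosome 4 from 83535914 to 83605875, plus strand, with no shared exonic base.

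AGPAT2, a lysophosphatidate acyltransferase whose loss causes congenital lipodystrophy, had 89.2, 83.9, 76.4, 81.5 and 80.3 CPM in control replicates 1 to 5. Under PS20 the values were 106, 114, 102, 105 and 102 CPM. The groups did not overlap, and the log2 fold change was 0.36 ± 0.062 (adjusted p = 6.19e-05). AGPAT2 (ENSG00000169692.13) lies on chromosome 9 from 136673143 to 136687457, minus strand, with no shared exonic base. AGPAT3, another lysophosphatidate acyltransferase of the endoplasmic reticulum, had 162 to 180.2 CPM in control and 154 to 172 CPM with PS20. These ranges overlapped, and the log2 fold change was -0.03 with a 95% interval from -0.14 to 0.08 (adjusted p = 0.667). AGPAT3 (ENSG00000160216.21) lies on chromosome 21 from 43865223 to 43987592, plus strand, with no shared exonic base.

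LPIN1, a phosphatidate phosphatase that also acts as a transcriptional coactivator, had 34.5, 35.1, 28.4, 26.7 and 26.2 CPM in control replicates 1 to 5. PS20 libraries had 55.3, 44.8, 34.0, 36.9 and 30.1 CPM. The groups overlapped, since PS20 replicates 3 and 5 lay below control replicates 1 and 2. The log2 fold change was 0.40 ± 0.14 (adjusted p = 0.0219). The call was lost without control replicate 4 (adjusted p = 0.0690) or 5 (0.0605) and without PS20 replicate 1 (0.0830) or 2 (0.0577). LPIN1 (ENSG00000134324.12) lies on chromosome 2 from 11677595 to 11827409, plus strand, and shares 0.97% of its exonic bases.

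LPIN2, the lipin with the highest level per length in these cells, had 70.1 to 82.4 CPM in control and 64.5 to 73.5 CPM with PS20. The ranges overlapped. This gave a log2 fold change of -0.15 ± 0.063 (adjusted p = 0.0565), so LPIN2 missed the threshold. It passed, on the lower side, without control replicate 1 (adjusted p = 0.0241), PS20 replicate 2 (0.0428) or PS80 replicate 1 (0.0484). LPIN2 (ENSG00000101577.11) lies on chromosome 18 from 2885296 to 3013144, minus strand, and shares 7.12% of its exonic bases.

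Across the 10 genes, 6 separated PS20 from control without overlap, all 6 higher with PS20, against 32.5% of all tested genes that separated the groups in either direction. Several measures of the whole library moved with PS20 as well. The mitochondrial share was above that of control in every PS20 library. The summed level of the epithelial markers was below that of control in every PS20 library. Among its 11 tested genes 3 were higher, 4 lower and 4 did not pass. Lower were KRT8, KRT18 and KRT19, the keratins of simple epithelia, and VIL1, at log2 fold changes of -0.73, -0.61, -0.50 and -0.29. Higher were FABP1 (0.55), CDX2 (0.37) and CDH1 (0.12). The sum is weighted to genes of high level, such as KRT8 (4436 ± 566 CPM in control, 2684 ± 190 CPM with PS20), and does not show a fall of all the markers. The 8 fibroblast markers summed to 192 to 206 CPM in control and 155 to 170 CPM with PS20, and the 7 blood markers to 9.69 to 14.9 and 16.2 to 19.9 CPM. The adipocyte markers summed to 12.8 to 19.8 CPM in control and 16.5 to 28.1 CPM with PS20, ranges that overlapped. Their part in the results for the 10 genes was not tested, and in bulk RNA fewer cells of a type and less RNA per cell cannot be told apart.

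**Figure D2:**
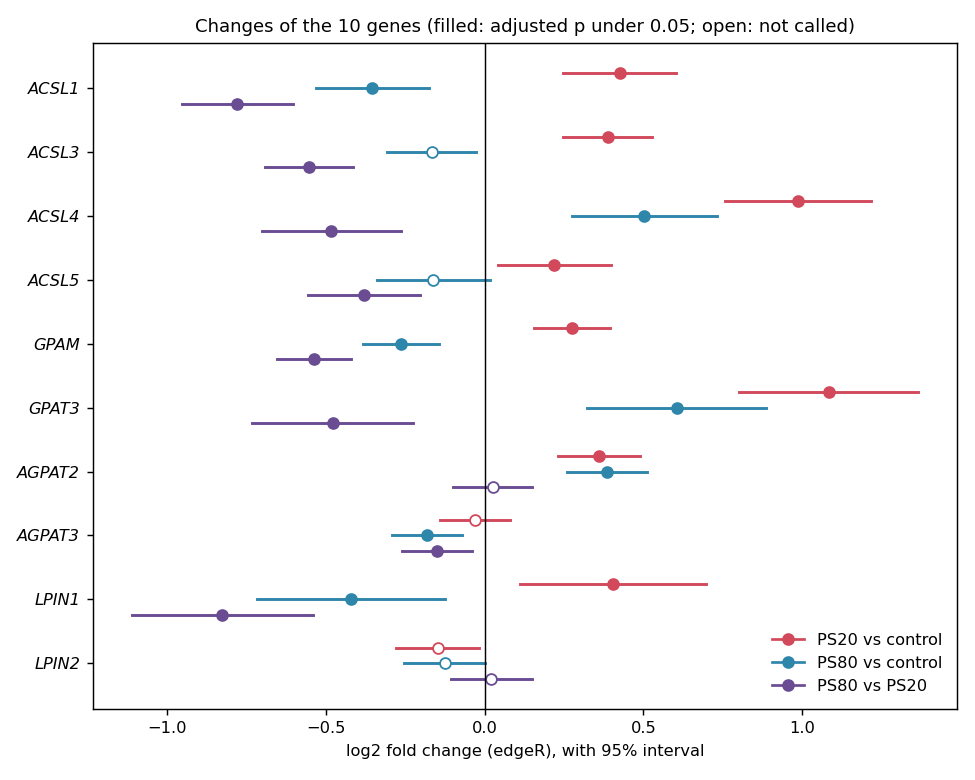
Log2 fold change by edgeR (horizontal axis) of each of the 10 genes in the 3 comparisons, with its 95% interval; filled points passed an adjusted p of 0.05 and open points did not. ACSL4, GPAT3 and AGPAT2 lie right of 0 in both comparisons with control, ACSL1, GPAM and LPIN1 lie right of 0 with PS20 and left of 0 with PS80, and no filled point lies right of 0 in PS80 vs PS20.

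The comparison of PS80 with control put the same question to the oleate-based emulsifier. Of the 10 genes, 3 rose with PS80, 4 fell and 3 did not pass, against a background of 33.4% of all tested genes that passed, 17.4% higher and 16.0% lower. GPAT3 rose 1.52-fold, ACSL4 1.42-fold and AGPAT2 1.31-fold. LPIN1 was 1.34-fold lower, ACSL1 1.28-fold lower, GPAM 1.20-fold lower and AGPAT3 1.13-fold lower. The median log2 fold change was -0.16 over the 10 genes and 0.0017 over all tested genes. This comparison uses the same 5 control libraries as the comparison of PS20 with control.

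Among the synthetases, ACSL1 had 58.9, 66.1, 77.7, 59.3 and 69.0 CPM in PS80 replicates 1 to 5, and 66.2 to 92.9 CPM in control. The ranges overlapped, since control replicate 1 was the lowest of its group. On the log2 scale the change was -0.35 ± 0.086 (adjusted p = 0.00342), and -0.27 in replicates 1 and 2 alone (adjusted p = 0.178). ACSL4 had 127, 109, 92.4, 97.6 and 106 CPM with PS80. Only PS80 replicate 3 was under the highest control library, replicate 1, and the log2 fold change was 0.50 ± 0.11 (adjusted p = 0.00141).

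ACSL3 had 394, 353, 336, 336 and 346 CPM in PS80 replicates 1 to 5. Every library except replicate 1 was below the control range of 384 to 424 CPM. The log2 fold change of -0.17 ± 0.067 missed the threshold (adjusted p = 0.0596). A block for the replicate number over all 15 libraries ties same-numbered libraries of the 3 groups, PS20 included. With that block the log2 fold change of ACSL3 was also -0.17 and passed (adjusted p = 0.00757). It also passed without PS20 replicate 2 (0.0299) or PS80 replicate 1 (0.0246), in the fit of the 2 groups alone (0.0249) and in replicates 3 to 5 alone (-0.19, adjusted p = 0.000788). ACSL5 had 80.2, 90.1, 98.5, 93.1 and 91.1 CPM with PS80, which overlapped the control range of 84.0 to 120.3 CPM. Its log2 fold change was -0.16, with a 95% interval from -0.34 to 0.02 (adjusted p = 0.156). Within replicates 1 and 2 alone it was -0.48 (adjusted p = 0.00670), and within replicates 3 to 5 alone 0.08 (adjusted p = 0.331).

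The acyltransferases did not move together. GPAM had 104, 96.4, 109, 109.5 and 108 CPM in PS80 replicates 1 to 5, all below the control minimum of 117 CPM. By edgeR its log2 fold change was -0.26 ± 0.058 (adjusted p = 0.00144). GPAT3 had 18.5, 15.6, 14.0, 15.8 and 14.8 CPM, all above the control maximum of 13.7 CPM. Its log2 fold change was 0.60 ± 0.14 (adjusted p = 0.00179), and 0.37 in replicates 1 and 2 alone (adjusted p = 0.135). So 1 of the 2 glycerol phosphate acyltransferases followed here was lower and the other higher with PS80.

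AGPAT2 and AGPAT3 also differed in direction. AGPAT2 had 105, 122, 106, 102 and 101 CPM in PS80 replicates 1 to 5, all above the control range of 76.4 to 89.2 CPM. By edgeR its log2 fold change was 0.39 ± 0.061 (adjusted p = 7.81e-05). AGPAT3 had 132, 156, 145, 155 and 154 CPM, all below the control minimum of 162 CPM. Its log2 fold change was -0.18 ± 0.053 (adjusted p = 0.0120), and it did not pass with no filter on low counts (adjusted p = 0.101) or in replicates 1 and 2 alone (-0.25, adjusted p = 0.147).

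LPIN1 had 25.9, 26.0, 18.8, 21.1 and 19.1 CPM in PS80 replicates 1 to 5. The highest PS80 library was just below the lowest control library, at 26.2 CPM. The fitted log2 fold change was -0.42 ± 0.14 (adjusted p = 0.0266). The call was lost without control replicate 1 (adjusted p = 0.0585) or 2 (0.0845) and without PS80 replicate 3 (0.0559) or 5 (0.0691). LPIN2 had 65.9 to 76.7 CPM with PS80, which overlapped control. By edgeR its log2 fold change was -0.13, with a 95% interval from -0.25 to 0.0023 (adjusted p = 0.123), and it passed in replicates 3 to 5 alone (-0.17, adjusted p = 0.0363).

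Some markers of other cells also differed with PS80. The blood markers summed to 15.2 to 18.9 CPM, above the control range of 9.69 to 14.9 CPM. The fibroblast markers overlapped control, at 160 to 209 CPM against 192 to 206 CPM. So did the endothelial markers, of which TEK was at 0, at 11.2 to 16.2 CPM against 4.30 to 11.8 CPM. The adipocyte markers overlapped too, at 15.5 to 24.4 CPM against 12.8 to 19.8 CPM. CIDEC, the only adipocyte marker tested, did not pass with PS80 (log2 fold change 0.32, adjusted p = 0.119). Of 5 tested fibroblast markers, PDGFRA and PDGFRB were lower with PS80 (log2 fold changes -0.36 and -0.85), against 33.4% of all tested genes that passed. The other 3 did not pass, LUM (0.74), COL1A1 (0.14) and COL3A1 (-0.31). PECAM1 of endothelium (0.56) and CD14 of monocytes (0.40) were higher. Each was the only marker of its list with enough counts to be tested, of 5 endothelial and 7 blood markers, so these are changes of single genes. Their part in the results for the 10 genes was not tested.

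In all, 5 of the 10 genes separated PS80 from control without overlap, 2 higher and 3 lower, against 19.6% of all tested genes in either direction. Among libraries counted with 1 software version, PS80 is left with replicate 2 alone, whose spread then has to be taken from the other groups. In that fit GPAM was still lower (-0.39, adjusted p = 0.00933) and 3 genes were still higher, and ACSL1 (-0.35, adjusted p = 0.0579), AGPAT3 (-0.11, adjusted p = 0.399) and LPIN1 (-0.21, adjusted p = 0.516) no longer passed.

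The direct comparison of PS80 with PS20, at the same dose and time, asked where the 2 emulsifiers differed. Of the 10 genes, 8 were lower with PS80 than with PS20, 0 were higher and 2 did not pass, against a background of 35.5% of all tested genes that passed, 17.3% lower. LPIN1 was 1.77-fold lower, ACSL1 1.72-fold, ACSL3 1.47-fold, GPAM 1.45-fold, ACSL4 1.40-fold, GPAT3 1.39-fold, ACSL5 1.30-fold and AGPAT3 1.11-fold. At an unadjusted p under 0.05 edgeR also had 0 genes higher with PS80, as did DESeq2 and limma voom at their adjusted p. The median log2 difference was -0.48 over the 10 genes and -0.00209 over all tested genes.

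For the synthetases, the log2 difference between PS80 and PS20 was -0.78 ± 0.085 for ACSL1 (adjusted p = 6.71e-07) and -0.55 ± 0.067 for ACSL3 (adjusted p = 2.33e-06). It was -0.48 ± 0.11 for ACSL4 (adjusted p = 0.00126) and -0.38 ± 0.084 for ACSL5 (adjusted p = 0.00147). In ACSL1, ACSL3 and ACSL5 the highest PS80 library was below the lowest PS20 library. In ACSL4 the groups overlapped, because PS80 replicate 1 reached the level of PS20 replicates 3 and 5. Both glycerol phosphate acyltransferases were lower with PS80, GPAM by a log2 difference of -0.54 ± 0.057 (adjusted p = 4.77e-07) and GPAT3 by -0.48 ± 0.12 (adjusted p = 0.00422). GPAT3 was thus higher with each emulsifier than in control, and higher with PS20 than with PS80.

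AGPAT2 gave no detectable difference between the emulsifiers. Its log2 difference was 0.02 ± 0.060, with a 95% interval from -0.10 to 0.15 (adjusted p = 0.782). AGPAT2 had 102 to 114 CPM with PS20 and 101 to 122 CPM with PS80. AGPAT3 was lower with PS80 by a log2 difference of -0.15 ± 0.053 (adjusted p = 0.0304). That call was lost without PS20 replicate 3 (adjusted p = 0.0700), 4 (0.0625) or 5 (0.0748), without PS80 replicate 1 (0.0953) or 3 (0.0645), and with no filter on low counts (0.259) and in replicates 1 and 2 alone (0.498). LPIN1 had the largest log2 difference of the 10, -0.83 ± 0.14 (adjusted p = 9.10e-05), and did not overlap. For LPIN2 the log2 difference was 0.02, with a 95% interval from -0.11 to 0.15 (adjusted p = 0.818).

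Of the 10 genes, 5 were lower with PS80 than with PS20 without overlap (ACSL1, ACSL3, ACSL5, GPAM and LPIN1), against 22.7% of all tested genes in either direction. In the fit with PS80 replicate 2 as the only PS80 library, 4 of the 8 calls held, at -0.77 for ACSL1, -0.55 for ACSL3, -0.65 for GPAM and -0.60 for LPIN1 (adjusted p = 0.0497). The other 4 did not pass there, at -0.44 for ACSL4 (adjusted p = 0.0744), -0.38 for ACSL5 (0.0704), -0.48 for GPAT3 (0.0924) and -0.07 for AGPAT3 (0.604).

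The makeup of each enzymatic step was described by the share of each gene in the summed RPKM of its step, with no test. The 4 synthetases summed to 72.5 ± 4.13 RPKM in control, 96.8 ± 5.37 with PS20 and 67.2 ± 1.51 with PS80. ACSL4 took 10.4% ± 1.14 (SD, n = 5) of this sum in control, 15.4% ± 2.13 with PS20 and 15.9% ± 1.81 with PS80. The highest control share, 12.02%, was below the lowest share with either emulsifier, 13.5% with PS20 and 13.6% with PS80. ACSL3 held 37.9% ± 1.29, 37.0% ± 2.55 and 36.4% ± 2.14, and ACSL5 held 33.7% ± 3.83, 29.5% ± 2.59 and 32.6% ± 2.66. ACSL1 held 18.0% ± 3.06, 18.1% ± 1.90 and 15.1% ± 1.63. The sum therefore differed between the emulsifiers, while the share of ACSL4 was above control with each.

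The glycerol phosphate acyltransferase step was summed over GPAM, GPAT3 and GPAT4, a gene of the same step outside the 10, and reached 22.3 ± 1.28 RPKM in control, 26.9 ± 1.52 with PS20 and 20.8 ± 0.597 with PS80. GPAT3 took 12.9% ± 2.63 of it in control, 22.5% ± 2.16 with PS20 and 20.9% ± 2.36 with PS80. GPAM held 57.8% ± 1.42 in control, 57.7% ± 1.46 with PS20 and 51.6% ± 1.319 with PS80. GPAT4 held 29.3% ± 2.23, 19.8% ± 2.03 and 27.5% ± 1.84. The larger share of GPAT3 thus stood beside a smaller share of GPAT4 with PS20 and a smaller share of GPAM with PS80.

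The lipin step was summed over LPIN1, LPIN2 and LPIN3 and reached 18.97 ± 0.777 RPKM in control, 15.8 ± 0.542 with PS20 and 15.9 ± 0.930 with PS80. LPIN1 took 13.4% ± 1.43 in control, 21.4% ± 4.71 with PS20 and 11.7% ± 1.61 with PS80. LPIN2 was the largest part in every group, at 54.7% ± 3.34, 59.4% ± 4.10 and 59.96% ± 3.81. LPIN3, a lipin outside the 10 genes, held 31.9% ± 2.597, 19.2% ± 4.47 and 28.3% ± 4.75. These shares order mRNA per length, depend on the exonic lengths listed for the genes, and say nothing of enzyme activity.

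**Figure D3:**
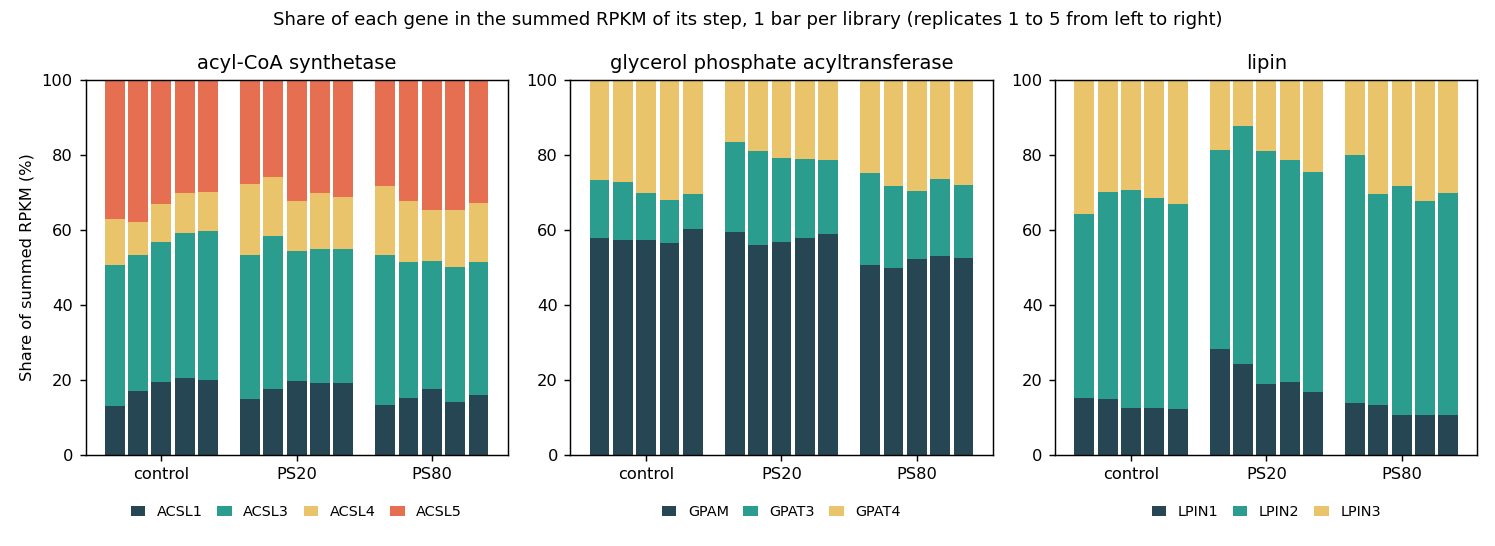
Share of each gene in the summed RPKM of its step (vertical axis, percent), 1 bar per library in the order of replicates 1 to 5, for the synthetases, the glycerol phosphate acyltransferases and the lipins. The share of ACSL4 is 8.89% to 12.02% in control and at least 13.5% with PS20 and 13.6% with PS80, and GPAT4 and LPIN3 take less of their steps with PS20 than in control.

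Another 62 genes of the pathway were listed, of which 48 were tested. With PS20, 13 of the 48 rose and 11 fell (median log2 fold change 0.07), with PS80 11 rose and 9 fell (median -0.02), and between PS80 and PS20 12 were higher and 12 lower (median 0.01). With PS20 these were 27.1% and 22.9% of the 48, near the 24.4% and 23.9% over all tested genes. With PS80 they were 22.9% and 18.8%, against 17.4% and 16.0% over all, and between PS80 and PS20 each was 25% against 18.2% and 17.3%. The counts by role that follow are a description to be read against the same shares, 48.3% of all tested genes with PS20 and 33.4% with PS80 in either direction. Among 12 other synthetases and genes of fatty acid uptake, 6 rose and 3 fell with PS20 (75% called), and 3 rose and 2 fell with PS80 (41.7% called). SLC27A1, a fatty acid transport protein with synthetase activity, rose from 3.24 ± 0.883 to 10.1 ± 1.53 CPM with PS20 (log2 fold change 1.64, adjusted p = 6.23e-06) and to 9.32 ± 3.05 CPM with PS80 (1.54, adjusted p = 3.36e-05). ACSS2, which activates acetate, rose from 131 ± 16.8 to 232 ± 40.7 CPM with PS20 (0.83, adjusted p = 2.03e-06) and was lower with PS80 than with PS20 (-0.75, adjusted p = 1.27e-05). FABP1, the liver-type fatty acid binding protein of enterocytes, rose from 102 ± 12.6 to 149 ± 14.7 CPM with PS20 (0.55, adjusted p = 2.23e-05) and was lower with PS80 than with PS20 (-0.64, adjusted p = 6.72e-06). SLC27A4, of the same protein family as SLC27A1, rose from 42.8 ± 4.63 to 55.3 ± 5.08 CPM with PS20 (0.38, adjusted p = 0.000528) and to 64.0 ± 4.63 CPM with PS80 (0.59, adjusted p = 1.04e-05). Its PS20 call did not pass in replicates 1 and 2 alone (0.33, adjusted p = 0.0761). DBI, which binds acyl-CoA, fell with each emulsifier, by 0.41 with PS20 (adjusted p = 5.34e-06) and by 0.33 with PS80 (adjusted p = 0.000159) on the log2 scale. With PS80 replicate 2 as the only PS80 library, the fall of DBI did not pass (-0.26, adjusted p = 0.0793).

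Closest to the 10 genes by role, 9 other glycerol phosphate and lysophosphatidate acyltransferases gave 1 higher and 2 lower with PS20, and 2 higher and 1 lower with PS80, 33.3% called in each. GPAT4, a glycerol phosphate acyltransferase of the endoplasmic reticulum and lipid droplets, fell from 51.7 ± 2.51 to 42.3 ± 3.77 CPM with PS20 (log2 fold change -0.29, adjusted p = 0.00164). With PS80 it was 45.4 ± 3.15 CPM (-0.20, adjusted p = 0.0301), a call lost without control replicate 4 (0.0975) or 5 (0.0605) and without PS80 replicate 1 (0.0788), 2 (0.0572) or 4 (0.0542). The PS80 call of GPAT4 was also lost with no filter (0.159), in replicates 1 and 2 alone (0.203) and with PS80 replicate 2 as the only PS80 library (0.172). In GPAM, GPAT3 and GPAT4, the same enzymatic step therefore held genes that rose and a gene that fell with PS20. AGPAT4 fell from 12.4 ± 1.17 to 8.40 ± 1.05 CPM with PS20 (-0.58, adjusted p = 0.000941), where AGPAT2 rose. In replicates 1 and 2 alone the fall of AGPAT4 did not pass (-0.38, adjusted p = 0.184).

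Of 7 other phosphatidate phosphatases and lipin regulators, 1 passed with PS20, on the lower side (14.3% called), and with PS80 1 rose and 4 fell (71.4% called). The gene that fell with PS20 was LPIN3, from 28.2 ± 2.32 to 14.1 ± 3.22 CPM (log2 fold change -0.99, adjusted p = 7.77e-06), while LPIN1 rose. With PS80 LPIN3 was 21.1 ± 4.14 CPM (-0.40, adjusted p = 0.0226), a call lost without control replicate 1 (0.0512) or PS80 replicate 1 (0.0603), and it was higher with PS80 than with PS20 (0.58, adjusted p = 0.00240). LPIN1 and LPIN3 thus differed between the emulsifiers in opposite directions. PLPP3 and PLPP5, of the lipid phosphate phosphatase family, fell by 0.42 each with PS80 (adjusted p = 0.00155 and 0.0103). With PS80 replicate 2 as the only PS80 library, LPIN3 (-0.24, adjusted p = 0.356) and PLPP5 (-0.36, adjusted p = 0.152) did not pass.

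Downstream of the 10 genes, 3 diacylglycerol acyltransferases and genes of the monoacylglycerol path were tested. With PS20, 2 of them rose (66.7% called), and with PS80 1 rose (33.3% called). DGAT1, which makes triacylglycerol from diacylglycerol, rose from 96.1 ± 7.29 to 124 ± 8.98 CPM with PS20 (log2 fold change 0.36, adjusted p = 0.000163) and to 123 ± 9.70 CPM with PS80 (0.35, adjusted p = 0.000436). DGAT2, another diacylglycerol acyltransferase, had 159 ± 18.2 CPM in control, 154 ± 7.99 with PS20 and 164 ± 9.53 with PS80. It passed against control with neither emulsifier. MOGAT3, of the monoacylglycerol path, rose by 0.59 with PS20 (adjusted p = 0.000698) and was lower with PS80 than with PS20 (-0.45, adjusted p = 0.00548). Of 6 genes of the CDP-diacylglycerol branch, which leads to phosphatidylinositol and cardiolipin, 1 rose and 2 fell with PS20 (50% called). The only one to pass with PS80 was CDIPT (0.15, adjusted p = 0.0489), which makes phosphatidylinositol, and that call was lost without any 1 library other than control replicate 2 (adjusted p between 0.0516 and 0.150). CDIPT with PS80 also did not pass with other size factors (0.0547), with no filter (0.1005), in the 2 groups alone (0.0862), in replicates 1 and 2 alone (0.428) or in replicates 3 to 5 alone (0.0631). Upstream, 4 genes of glycerol 3-phosphate supply gave 2 higher and 1 lower with PS20 (75% called), and 2 higher and 0 lower with PS80 (50% called). GPD1L, which makes glycerol 3-phosphate, rose by 0.39 with PS20 (adjusted p = 0.000239) and by 0.42 with PS80 (adjusted p = 0.000232). GPD1 had 9.61 ± 2.44 CPM in control, 6.62 ± 1.49 with PS20 and 7.08 ± 1.76 with PS80. Among 7 thioesterases, which split the acyl-CoA that synthetases make, 1 rose and 2 fell with each emulsifier (42.9% called). ACOT13 fell from 78.9 ± 5.35 to 40.5 ± 1.19 CPM with PS20 (-0.96, adjusted p = 1.42e-10) and to 59.0 ± 3.38 CPM with PS80 (-0.42, adjusted p = 2.29e-05). In replicates 1 and 2 alone the PS20 calls of DGAT1 (0.20, adjusted p = 0.237) and MOGAT3 (0.45, adjusted p = 0.122) and the PS80 call of DGAT1 (0.34, adjusted p = 0.0611) did not pass. The difference of MOGAT3 between PS80 and PS20 did not pass there either (-0.44, adjusted p = 0.143), nor with PS80 replicate 2 as the only PS80 library (-0.20, adjusted p = 0.439).

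**Figure D4:**
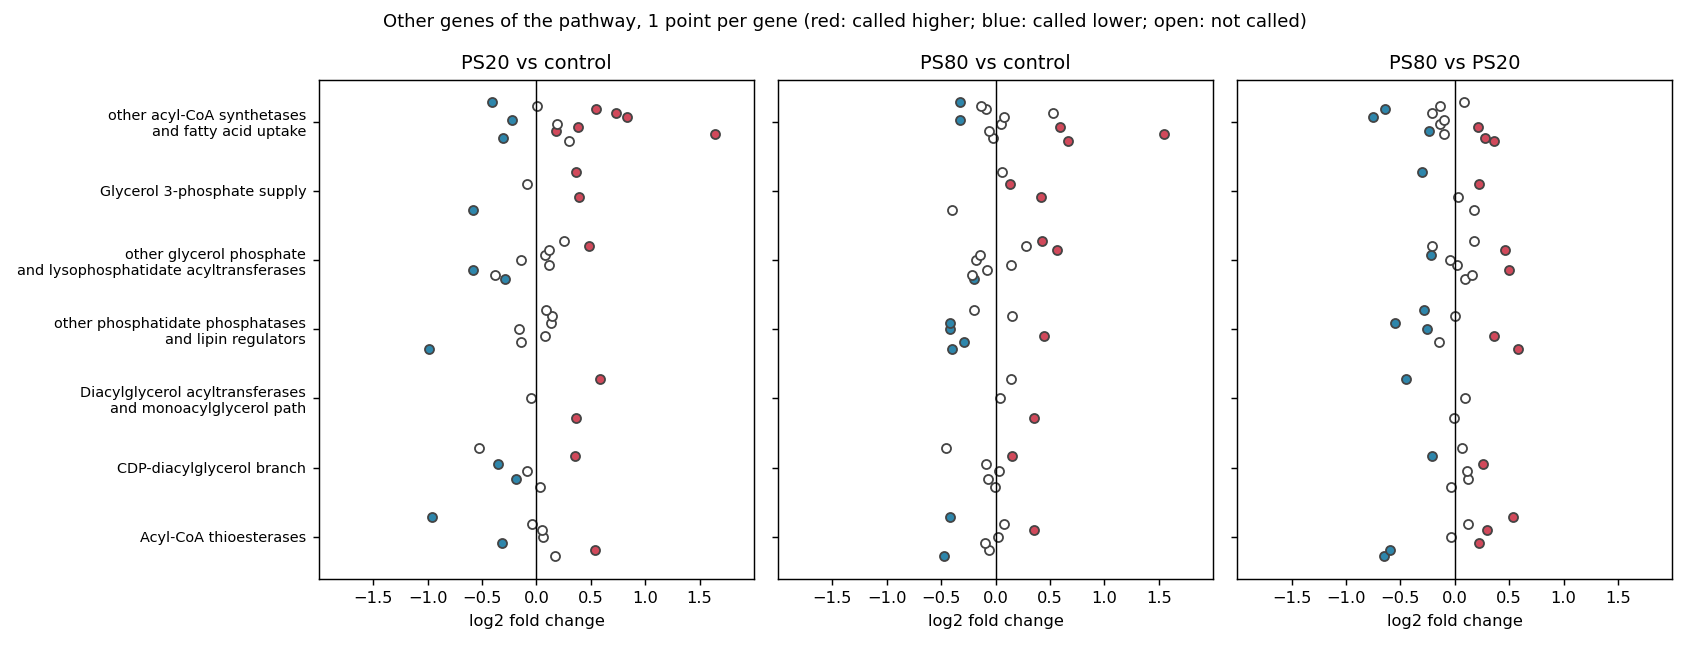
Log2 fold change by edgeR (horizontal axis) of the 48 tested other genes of the pathway, 1 point per gene, grouped by role and shown for the 3 comparisons; red points passed an adjusted p of 0.05 as higher, blue points as lower, and open points did not pass. Points lie on both sides of 0 in nearly every group of roles, with 13 higher and 11 lower in PS20 vs control.

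The genes whose levels ran most like those of GPAT3, ACSL4 and LPIN1, the members with the largest differences between group means (1.08, 0.97 and 0.83 in log2 CPM), were found by Pearson correlation of log2 CPM over the 15 libraries, among 9872 genes. These libraries share the 3 groups and the split between replicates 1 and 2 and replicates 3 to 5, so the correlations are a description. For GPAT3 the highest were TNFRSF10B, a death receptor (r = 0.968), AGO1, an Argonaute protein (r = 0.967), and GDF11, a growth factor (r = 0.964). For ACSL4 they were ELOVL6, a fatty acid elongase (r = 0.963), TNFRSF10B (r = 0.962) and MIB1, a ubiquitin ligase (r = 0.961). For LPIN1 they were SCD, the stearoyl-CoA desaturase (r = 0.947), PEG10, a retrotransposon-derived gene (r = 0.946), and PNPLA3, a lipid droplet hydrolase (r = 0.931). SCD had 3325 ± 448 CPM in control, 4599 ± 449 CPM with PS20 and 2508 ± 292 CPM with PS80, the same order of groups as LPIN1.

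Within groups, after the group means were taken away, ACSL3 and ACSL4 ran together over the 15 libraries (r = 0.831), as did LPIN1 with ACSL4 (r = 0.774), ACSL3 (r = 0.773) and GPAT3 (r = 0.771). ACSL1 ran against ACSL4 (r = -0.676) and GPAT3 (r = -0.665), and AGPAT3 against ACSL3 (r = -0.674). In all 3 groups replicate 1 had the lowest ACSL1 and the highest ACSL4 and GPAT3. The part of the split between replicates 1 and 2 and replicates 3 to 5 in these correlations was not tested.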

How the data were processed

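The deposited tables held whole-number read counts per gene, 1 table for each of 15 libraries, without normalization. Per the labels' protocols, RNA was extracted on columns and its polyadenylated part was made into libraries. The authors ran featureCounts, per the file headers, on GENCODE release 42 at a mapping quality minimum of 10, with no option for strand or read pairs, using version 2.0.0 in 11 libraries and 2.0.3 in PS80 replicates 1, 3, 4 and 5. Without strand, reads of a gene and of an antisense partner cannot be told apart. Cutadapt, STAR 2.7.9a, DESeq2 1.32.0 and GRCh38 are named in the submitters' processing notes. Of 69215 listed genes, 62672 (90.55%) were paired with a symbol, and at most 0.00174% of a library's counts had none.

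Groups were compared in R 4.3.3 with edgeR 4.0.16: filterByExpr (minimum count 10, minimum total 15), trimmed mean of M-values factors (0.978 to 1.02), and the quasi-likelihood test with 1 term per group over all 15 libraries (12 residual degrees of freedom, common biological coefficient of variation 8.91%). P-values were adjusted by Benjamini-Hochberg over 12769 genes, with a threshold of 0.05. CPM used the scaled library sizes, log2 CPM a prior count of 2, and RPKM the exonic length in the deposited tables. No pair of libraries had identical counts. Medians of total counts were 7291913 (control), 8335083 (PS20) and 10120136 (PS80). Alternatives were DESeq2 1.42.0, limma 3.58.1 voom, other size factors, no filter, the compared groups alone, the replicate block, replicates 1 and 2 or 3 to 5 alone, 1 counting version, and leaving out each library.

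Libraries of control and PS80 with the same replicate number in the titles deviated together from their group means (correlations 0.102 to 0.304). Replicates 1 (0.139 against 0.171) and 5 (0.124 against 0.215) still correlated better with a library of another number. PS80 and PS20 were alike in this (0.0741 to 0.29), with replicates 2 (0.0974 against 0.146) and 4 (0.0741 against 0.148) better with another number. For PS20 and control the correlations were -0.0264 to 0.248, and only replicate 4 (-0.0264 against 0.0369) was better with another number. The main tests used no replicate term, and the replicate block was run only as an alternative. The 10 genes, the lists and the motifs were chosen with earlier results of these data known. All 10 genes are named. Other pathway genes could be named where they passed in some comparison at a mean of at least 5 CPM, and not all of those are. For the 3 genes with the largest group differences the 3 genes most correlated with each are named. The protein sequences of the 10 genes were not used here.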

Additional observations from a re-analysis of the deposited data

Results flagged for a closer look

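In 2 of 30 sets of 5 libraries, 1 for each gene and group, a library stood far from the other 4. Chance alone gives this in about 1 of 20 such sets. ACSL3 had 424 CPM in control replicate 1, against 395 CPM in the nearest control library, a gap of 0.740 of the whole range. AGPAT2 had 122 CPM in PS80 replicate 2, the most deeply sequenced library, against 106 CPM in the nearest PS80 library, a gap of 0.741 of the range.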

How the results depend on the processing

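Over all alternatives, 1592 of the values for single genes kept their direction and side of the threshold, 113 lost the call, 13 gained one and 8 turned direction. Of the 10 genes, 1 was called lower with PS20 under DESeq2, in the fit of the 2 compared groups alone and under the replicate block (LPIN2, -0.15, adjusted p = 0.0398 under the block). Leaving out single libraries gave 0 to 1. The replicate block changed no other call of the 10 genes apart from ACSL3 with PS80, given above. In replicates 1 and 2 alone, 3116 genes passed with PS20, 2025 with PS80 and 1397 between PS80 and PS20. In the libraries counted with featureCounts 2.0.0 alone, 2816 genes passed between PS80 and control and 2351 between PS80 and PS20, and of the 10 genes 1 and 4 were lower. Replicates 3 to 5 alone gave 6346 genes with PS20, 3962 with PS80 and 4915 between PS80 and PS20. The main fit gave 6163, 4266 and 4527, and the replicate block gave 6871, 5160 and 5451. The cause of these shifts was not tested. Direction turned in uncalled values near 0: AGPAT3 with PS20 (0.030), ACSL5 with PS80 (0.079), and AGPAT2 (-0.0075) and LPIN2 (-0.032) between PS80 and PS20, all in replicates 3 to 5 alone, and in 1 called value, ACSL5 with PS20 (-0.078, replicates 1 and 2 alone). The cause was not tested. Leaving out single libraries gave 5608 to 6335 genes with PS20, 3566 to 4322 with PS80 and 3840 to 4694 between them, and for the direct comparison -0.011 to 0.045 for LPIN2 and -0.030 to 0.051 for AGPAT2. The number of the 10 genes that passed was 6 to 8 higher with PS20, 3 to 5 lower with PS80, and 7 to 8 lower between PS80 and PS20. The shift of each gene's log2 fold change from the main fit had a median over all tested genes of -0.00736 at the most with other size factors and tools. With no filter this median shift was 0.0325 at the most.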
